A study of Caenorhabditis elegans with 4 samples.

Results

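The PUF family (named after Pumilio of *Drosophila* and FBF of *C. elegans*) was followed in whole-embryo RNA of *meg-1 meg-2* and wild-type *C. elegans*. Its members were taken by gene name, and all 10 (*fbf-1*, *fbf-2*, *puf-3*, *puf-5*, *puf-6*, *puf-7*, *puf-8*, *puf-9*, *puf-11* and *puf-12*) are among the 42048 genes of the table. All 10 had a mean of at least 1 fpm (reads divided by a size factor of the library, on a common scale) and entered the test of 12734 genes. The *meg-1 meg-2* embryos came from 2 cultures of worms with the *meg-1* allele *vr10*, a partial deletion, fed bacteria for RNAi of *meg-2*. The wild-type embryos came from 2 cultures of the N2 strain fed bacteria with the empty vector L4440. All cultures were grown at 20°C. Embryos were collected by bleaching adult worms, so each library pools many embryos. The paper describes the embryos harvested from its larger cultures as early, but gives no stages for each library. The comparison asks which transcripts differ in level between the embryo pools of the genotypes.

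PUF proteins bind short elements that begin with UGU in the 3′ untranslated regions of mRNAs, through a domain of repeated helical units. They recruit deadenylases and other repressors, and some can also activate their targets. In *C. elegans* most of the family acts in the germline, where it holds stem cells in self-renewal, controls the switch between sperm and oocytes and keeps maternal mRNAs silent in oocytes. MEG-1 and MEG-2 are disordered proteins of the granules that mark the germ lineage of the early embryo.

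Reads counted on genes of *meg-1 meg-2* embryos numbered 22816733 in library A and 20662429 in library B, and those of wild type 24894414 in library A and 26017429 in library B. 1 read was worth 0.0380 to 0.0498 fpm, and a count of 0 allows up to 3 reads, or 0.114 to 0.149 fpm. These limits cover counting error only. The targeted gene *meg-1* had 19 and 18 reads in *meg-1 meg-2*, against 1933 and 2423 reads in wild type, and *meg-2* had 141 and 172 reads in *meg-1 meg-2*, against 515 and 677 in wild type. Over the 8126 genes of at least 10 fpm, the SD of the log2 difference between libraries was 0.10 within *meg-1 meg-2* and 0.27 within wild type, so the wild-type libraries stood further apart. Sperm transcripts, which would come from adult tissue, summed to 2.57 and 2.74 fpm over 12 genes in *meg-1 meg-2* and to 1.83 and 1.69 fpm in wild type, with *msp-3*, *msp-10*, *msp-19*, *msp-142*, *ssp-9* and *ssp-16* at 0 reads in all 4 libraries. 6 yolk protein genes of the adult intestine summed to 2.65 and 2.94 fpm in *meg-1 meg-2* and to 2.32 and 2.65 fpm in wild type. How reads shared by gene copies were counted is not given. Low or 0 counts in the sperm and yolk lists thus do not show that adult RNA was absent.

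7 of the 10 PUF transcripts were higher in *meg-1 meg-2* embryos and 0 were lower. These 7 were *fbf-1*, *puf-3*, *puf-5*, *puf-6*, *puf-7*, *puf-8* and *puf-11*, which were 1.45- to 1.79-fold higher. Of all genes tested, 13.8% were called higher and 7.84% lower by the same rule (limma, adjusted *P*-value below 0.05). Both *meg-1 meg-2* libraries lay above both wild-type libraries for 8 members, where 35.4% of all genes did. With total-count scaling, the numbers over all genes were 1263 higher and 1160 lower, against 1760 and 998 in the main test. Beside the 0 members called lower, 0 were lower at an unadjusted limma *P*-value below 0.05. edgeR and DESeq2 also called 0 lower (1 and 0 at an unadjusted *P*-value below 0.05). The median log2 fold change was 0.55 over the 10 members and 0.01 over all genes tested. With a change of at least 1.5-fold required as well, 4 members (*fbf-1*, *puf-3*, *puf-8* and *puf-11*) were called higher, and 0 lower, beside 5.4% and 2.88% of all genes (5.53% and 3.12% where the unadjusted *P*-value is used, with the same member counts). In whole-embryo RNA, a change in the share of cells that hold a transcript and a change in its level per cell cannot be told apart.

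**Figure D1:**
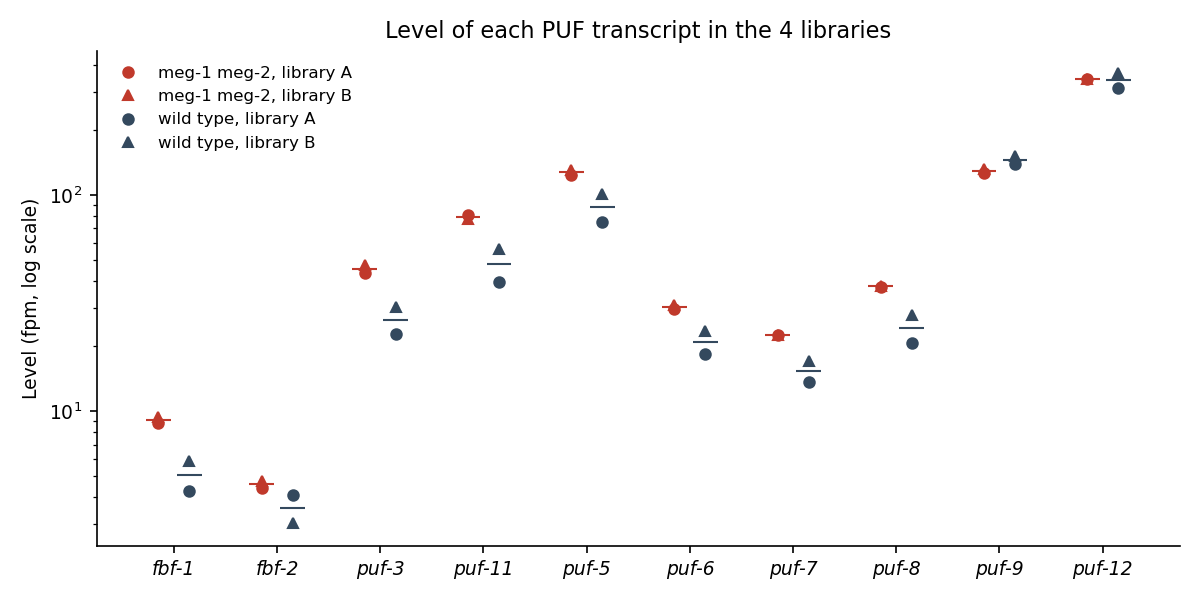
Level of each PUF transcript in fpm (log axis) in every library. *meg-1 meg-2* libraries are in red to the left and wild-type libraries in dark blue to the right, with circles for library A, triangles for library B and a bar at the mean of both. For 8 of the 10 genes both red symbols lie above both blue ones, *puf-9* lies the other way and *puf-12* overlaps.

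*fbf-1* codes for a protein that, with that of its close copy *fbf-2*, keeps germline stem cells dividing by repressing mRNAs of meiotic entry and of the sperm programme. *fbf-1* lies on chromosome II from 6078263 to 6080843 of WBcel235, with 8 exons on the minus strand. It had 8.80 and 9.36 fpm in *meg-1 meg-2* embryos, against 4.26 and 5.87 fpm in wild type. Both *meg-1 meg-2* libraries lay above both wild-type libraries. These values rest on 199 and 188 reads in *meg-1 meg-2*, against no more than 153 reads in either wild-type library. The log2 fold change was 0.80±0.21 (log2 fold changes are given ± their standard error) by limma (adjusted *P*=0.00291), with a 95% interval from 0.39 to 1.21. This was the largest value among the members at a pseudocount of 0.5 fpm, but with 2 fpm it was 0.66 for *fbf-1*, below 0.74 for *puf-3* and 0.72 for *puf-11*.

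*fbf-2* lies on the same strand of chromosome II, from 6088863 to 6091480, and also has 8 exons. It had 4.42 and 4.73 fpm in *meg-1 meg-2*, against 4.11 and 3.03 fpm in wild type. The groups did not overlap, but the gap between *meg-1 meg-2* library A and wild-type library A was smaller than the gap between the wild-type libraries. The reads were few, with 100 and 95 in *meg-1 meg-2* and 108 and 79 in wild type. The log2 fold change of 0.33±0.22 (limma adjusted *P*=0.280) did not pass the test, and its interval ran from −0.11 to 0.77.

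Since the *fbf* genes are near-identical copies, the way their shared reads were counted can move values between them. *fbf-1* took 66.6% (exact 95% interval 60.9 to 71.9) of the reads of both genes in library A and 66.4% (60.6 to 71.9) in library B of *meg-1 meg-2*. In wild type it took 50.9% (44.1 to 57.7) in library A and 65.9% (59.5 to 72.0) in library B. Wild-type library A thus stood apart from the other 3 libraries in the share, beyond counting error. The difference between genotypes was 8.06 points (exact two-sided permutation *P*=0.333, the smallest that 2 libraries against 2 can give). Without wild-type library A it was 0.545 points. Summed over both genes, the level was 13.2 and 14.1 fpm in *meg-1 meg-2*, against 8.37 and 8.90 fpm in wild type, and the log2 fold change was 0.63±0.19 (limma adjusted *P*=0.0107).

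*puf-3* and *puf-11* code for a second set of related proteins that act with the FBF proteins in stem cell self-renewal and that are also made in oocytes. *puf-11* (chromosome IV, 6421585 to 6423497, plus strand, 3 exons) had 80.7 and 77.4 fpm in *meg-1 meg-2*, against 39.7 and 56.3 fpm in wild type. Its log2 fold change was 0.74±0.14 (limma adjusted *P*=3.33e-05). *puf-3* (chromosome IV, 13510307 to 13512162, minus strand, 3 exons) had 43.3 and 47.2 fpm in *meg-1 meg-2*, against 22.6 and 30.3 fpm in wild type, and the log2 fold change was 0.78±0.15 (limma adjusted *P*=6.07e-05). For both genes the lower *meg-1 meg-2* library exceeded the higher wild-type library.

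All of *puf-3*, 1856 bp, lies within *afmd-2* on the opposite strand, and whether counting used strand is not given. *afmd-2* had 12.8 and 11.1 fpm in *meg-1 meg-2*, against 10.4 and 14.5 fpm in wild type, and its log2 fold change was −0.04±0.19 (limma adjusted *P*=0.883). Its level was thus below that of *puf-3* in every library. *puf-3* took 34.91% and 37.91% of the reads of *puf-3* and *puf-11* in *meg-1 meg-2*, against 36.32% and 34.97% in wild type, so the genotypes overlapped. Summed, both genes had 124 and 125 fpm in *meg-1 meg-2*, against 62.3 and 86.5 fpm in wild type, and the log2 fold change was 0.76±0.13 (limma adjusted *P*=7.16e-06).

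*puf-5*, *puf-6* and *puf-7* code for the PUF proteins of late oogenesis, which repress maternal mRNAs such as that of the Notch receptor *glp-1*. *puf-5* (chromosome II, 8575541 to 8577787, plus strand, 5 exons) was the most abundant of the 7 that rose. It had 124 and 131 fpm in *meg-1 meg-2*, against 75.2 and 101 fpm in wild type. Its log2 fold change was 0.54±0.13 (limma adjusted *P*=0.00116). Measured against wild-type library B alone the ratio was 1.26, the smallest among the 7.

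*puf-6* (chromosome II, 13039792 to 13043445, minus strand) and *puf-7* (chromosome IV, 5486713 to 5490322, plus strand) are closely related copies with 4 exons and the same predicted length of 485 amino acids. *puf-6* had 29.8 and 30.9 fpm in *meg-1 meg-2*, against 18.3 and 23.4 fpm in wild type (log2 fold change 0.54±0.16, limma adjusted *P*=0.0102). *puf-7* had 22.4 and 22.5 fpm in *meg-1 meg-2*, against 13.6 and 17.03 fpm in wild type (log2 fold change 0.55±0.17, limma adjusted *P*=0.0148). The copies kept nearly the same proportion throughout, although they lie on different chromosomes. *puf-6* took 57.0% (54.2 to 59.9) and 57.9% (54.9 to 60.9) of their summed reads in *meg-1 meg-2*, against 57.4% (54.02 to 60.8) and 57.8% (54.8 to 60.8) in wild type. Reads that fit both copies may have been dropped or split, so their separate levels are uncertain. Their sum was 52.2 and 53.4 fpm in *meg-1 meg-2*, against 31.9 and 40.4 fpm in wild type, and the log2 fold change was 0.55±0.15 (limma adjusted *P*=0.00355).

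*puf-8* is the *C. elegans* PUF gene most like *Drosophila* Pumilio among those of the germline, and its protein acts in germ cell proliferation, in the switch from sperm to oocytes and in keeping spermatocytes in meiosis. It lies on chromosome II from 7296110 to 7298247, on the minus strand, with 6 exons. *puf-8* had 37.7 and 37.9 fpm in *meg-1 meg-2*, against 20.6 and 27.9 fpm in wild type. The *meg-1 meg-2* libraries lay close together and above both wild-type libraries. The log2 fold change was 0.64±0.16 (limma adjusted *P*=0.00139).

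**Figure D2:**
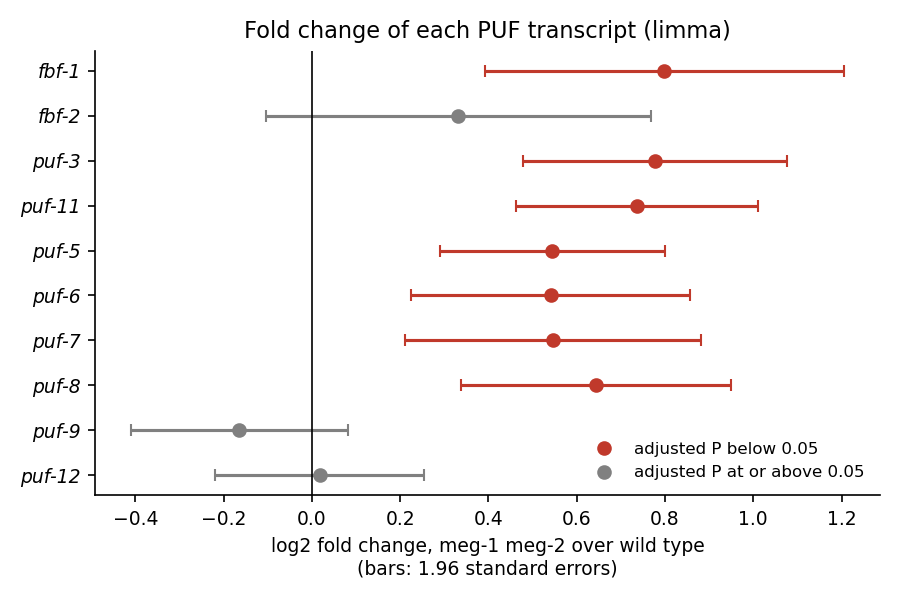
log2 fold change of each PUF transcript in *meg-1 meg-2* over wild type (limma on log2(fpm + 0.5)), with 95% intervals as bars. Red points have an adjusted *P*-value below 0.05; *fbf-2*, *puf-9* and *puf-12* in grey do not, and their bars cross 0.

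*puf-9* and *puf-12* differ from the rest of the family in where their proteins work. PUF-9 acts in the soma, where it represses the heterochronic gene *hbl-1*. *puf-9* lies on the X chromosome from 5841592 to 5845987, on the plus strand, and has 9 exons. It had 126 and 132 fpm in *meg-1 meg-2*, against 138 and 151 fpm in wild type. Both *meg-1 meg-2* libraries lay below both wild-type libraries, as they did for 30.1% of all genes tested. The log2 fold change of −0.16±0.13 (limma adjusted *P*=0.347) did not pass the test, and its interval ran from −0.41 to 0.08.

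*puf-12* is related to PUM3 of humans and Puf6 of yeast, divergent PUF proteins of the nucleolus. It lies on chromosome II from 10100310 to 10103061, on the plus strand, with 6 exons, and shares 91 bp with *ZK945.4* on the other strand, which had no more than 7.08 fpm in any library. *puf-12* had 343 and 342 fpm in *meg-1 meg-2*, between the values of 313 and 365 fpm in wild type. Its log2 fold change was 0.02±0.12 (limma adjusted *P*=0.928), with an interval from −0.22 to 0.25. Its sign depended on scaling, at −0.050 with total-count scaling and −0.041 after quantile normalization. Whether the fold changes of *puf-9* and *puf-12* differ from those of the other 8 genes was not tested.

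The 8 members other than *puf-9* and *puf-12* summed to 351 and 361 fpm in *meg-1 meg-2*, against 198 and 265 fpm in wild type. All 10 summed to 821 and 834 fpm in *meg-1 meg-2*, against 650 and 781 fpm in wild type, and *puf-9* and *puf-12* carried most of the family's reads. *puf-9* and *puf-12* also had the lowest log2 fold changes of the 10. A larger relative rise in the sum of the other 8 was thus built into the split.

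The order of the levels was compared per kb of the deposited gene length, which for all 10 genes equals the coding length with the stop codon in WBcel235. *puf-12* was the highest, at 149±0.318 fpm per kb in *meg-1 meg-2* and 148±16.02 fpm per kb in wild type (SD, *n*=2 each). *fbf-2* was the lowest, at 2.41±0.113 fpm per kb in *meg-1 meg-2* and 1.88±0.402 fpm per kb in wild type (SD, *n*=2 each), and *fbf-1* was next to it. Between them, in falling order, came *puf-11*, *puf-3*, *puf-8*, *puf-6* and *puf-7* in every library. In wild type, the mean level of *puf-3* (17.5±3.57 fpm per kb) differed from that of *puf-8* (15.1±3.21) by less than the SD of either, and so did that of *puf-8* from that of *puf-6* (14.3±2.43; SD, *n*=2), although the order was the same in both libraries.

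*puf-5* and *puf-9* exchanged places between the genotypes. In *meg-1 meg-2*, *puf-5* had 74.8 and 78.6 fpm per kb and *puf-9* had 59.8 and 62.3 fpm per kb. In wild type, *puf-5* had 45.3 and 60.8 fpm per kb and *puf-9* had 65.5 and 71.5 fpm per kb. The ratio of *puf-5* to *puf-9* was 1.25 and 1.26 in *meg-1 meg-2*, against 0.691 and 0.850 in wild type (exact two-sided permutation *P*=0.333, the smallest possible). The place of *puf-9* depends on the length used, because 1210 bp of its annotated transcript of 3322 bp are untranslated. Per kb of annotated transcript, *puf-9* fell below *puf-11* too in both *meg-1 meg-2* libraries, and in wild type it lay above *puf-5* in library A and below it in library B.

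The size of each rise depended on which wild-type library it was set against. 9 of the 10 members had a higher level in wild-type library B than in library A, where 60.3% of all genes tested did, and *fbf-2* was the exception. Against wild-type library A, the 7 transcripts called higher were 1.65- to 2.13-fold up in the *meg-1 meg-2* mean. Against wild-type library B they were 1.26- to 1.55-fold up. For *puf-12*, the ratio was 1.09 against library A and 0.937 against library B. With 1 wild-type library left out, the spread rests on the *meg-1 meg-2* libraries alone, which lay closer together, and the lone wild-type library is assumed to vary as they do. The number of calls over all 12734 genes was then 2420 higher and 1781 lower without library A, and 4566 higher and 3296 lower without library B. The 7 were among the calls in both cases. Without library A, *fbf-2* was also called higher and *puf-9* lower (log2 fold changes 0.52 and −0.23, limma adjusted *P*=0.0317 and 0.00542), and without library B *puf-12* was called higher (0.13, limma adjusted *P*=0.0399). With 1 *meg-1 meg-2* library left out, the spread rests on the wild-type libraries alone. limma then called 0 members (unadjusted *P*-value below 0.05 for 5 without library A and 4 without library B), and over all genes it called 27 higher in each case and 16 and 14 lower.

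**Figure D3:**
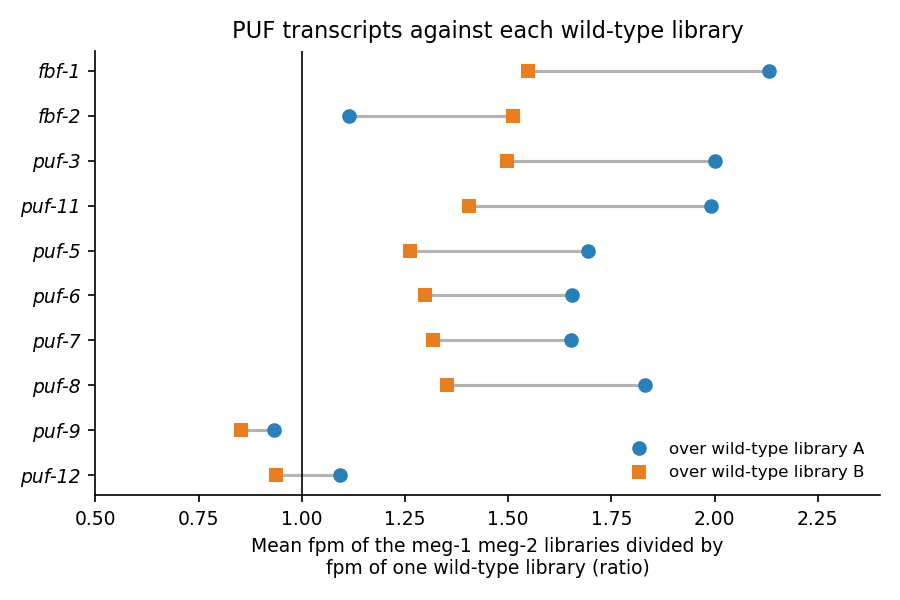
Mean level of each PUF transcript in the *meg-1 meg-2* libraries divided by its level in wild-type library A (blue circles) or B (orange squares), as ratios on a linear axis. For the 7 genes called higher the circle lies at 1.65 to 2.13 and the square at 1.26 to 1.55, and for *fbf-2* the order of the symbols is turned round.

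Lists of oocyte and eggshell transcripts and of embryonic tissue transcripts were also examined. Beside them, 13.8% of all genes tested were called higher and 7.84% lower. The first list includes genes such as *pos-1*, whose protein also acts in the early embryo. Of 16 oocyte and eggshell transcripts tested, 15 were higher in *meg-1 meg-2*, with a median log2 fold change of 0.54. The other 1, *mbk-2*, was lower, a share near that of all genes. The list of 18 summed to 2408 and 2444 fpm in *meg-1 meg-2*, against 1538 and 1910 fpm in wild type, so wild-type library A held the least, as it did for 8 of the 10 PUF genes. Early zygotic somatic transcripts were higher for 9 of 15 tested. The 17 genes of that list in the table summed to 482 and 478 fpm in *meg-1 meg-2*, against 290 and 370 fpm in wild type. Muscle transcripts were lower for 6 of 12 and summed to 2954 and 2969 fpm in *meg-1 meg-2*, against 4917 and 3413 fpm in wild type. Here wild-type library A held the most, and the median log2 difference of library B minus library A was −0.53. The size of the muscle fall thus depended on the wild-type library. Epidermal transcripts were lower for 8 of 12, and 1 (*col-38*) was higher, with sums of 3084 and 3305 fpm in *meg-1 meg-2*, against 4093 and 4388 fpm in wild type. *col-38* was scarce, at 3.14 and 1.74 fpm in *meg-1 meg-2*, against 0.495 and 0.575 fpm in wild type. It reached the filter of 1 fpm only through the *meg-1 meg-2* libraries. Of 8 neuronal transcripts, 1 (*unc-86*) was lower, which is near the share of all genes. The 8 summed to 232 and 231 fpm in *meg-1 meg-2*, against 296 and 236 fpm in wild type. No gene of the oocyte, zygotic, muscle, epidermal or neuronal lists that was in the table was at 0 reads in all libraries. The part of these transcripts in the PUF values was not tested.

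**Figure D4:**
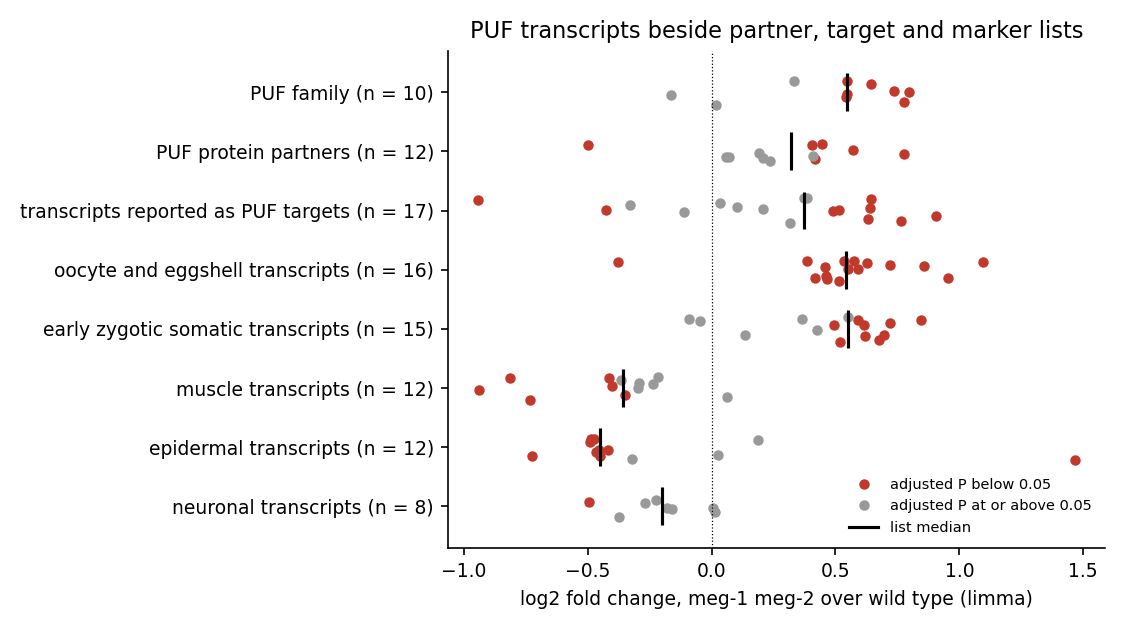
log2 fold change (limma) of each tested gene of the PUF family and of the partner, target and marker lists, with red for an adjusted *P*-value below 0.05, grey for the others and a black bar at the list median. The PUF, oocyte and early zygotic lists have medians of 0.55, 0.54 and 0.55, and the muscle and epidermal lists have medians of −0.36 and −0.45.

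Proteins that work with PUF proteins were examined as a list of 12. Of these transcripts 5 were higher and 1 was lower in *meg-1 meg-2*, where 13.8% of all genes tested were higher and 7.84% lower. The median log2 fold change was 0.32. With 1 of 12, the share of partners called lower was near that of all genes. The largest rise was that of *sygl-1*, a partner of FBF in stem cells, with 3.05 and 3.29 fpm in *meg-1 meg-2*, against 1.67 and 1.61 fpm in wild type (log2 fold change 0.78±0.24, limma adjusted *P*=0.0114). *gld-3*, a Bicaudal-C homologue that binds FBF and the poly-A polymerase GLD-2, had 191 and 184 fpm in *meg-1 meg-2*, against 112.2 and 141 fpm in wild type (log2 fold change 0.57, limma adjusted *P*=3.61e-04). *nos-2*, a Nanos homologue of the embryonic germline, had 47.3 fpm in both *meg-1 meg-2* libraries, against 31.7 and 37.8 fpm in wild type (log2 fold change 0.44, limma adjusted *P*=0.0206). These are whole-embryo values. In the germline founder cell alone, the paper found less *nos-2* RNA in *meg-1 meg-2* than in wild type by in situ hybridization. The transcript that fell was *gld-2* itself, with 38.2 and 36.3 fpm in *meg-1 meg-2*, against 50.2 and 55.7 fpm in wild type (log2 fold change −0.50±0.14, limma adjusted *P*=0.00758). *gld-2* and *gld-3*, which code for subunits of 1 enzyme, thus moved in opposite directions.

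Transcripts known as targets of PUF proteins were examined as a list of 18, of which 17 were tested. 7 were higher and 2 were lower, where 13.8% of all genes tested were higher and 7.84% lower, and the median log2 fold change was 0.37. With 2 of 17, the share of targets called lower was near that of all genes. The 3 largest rises were of *him-3* and *syp-3*, which code for proteins of the meiotic chromosome axis and synaptonemal complex, and of *fog-1*, which promotes sperm fate. *him-3* had 30.0 and 30.9 fpm in *meg-1 meg-2*, against 14.0 and 18.3 fpm in wild type (log2 fold change 0.91, limma adjusted *P*=1.69e-05). *syp-3* had 14.7 and 13.6 fpm in *meg-1 meg-2*, against 7.23 and 9.13 fpm in wild type (log2 fold change 0.76, limma adjusted *P*=0.00192). *fog-1* had 8.94 and 7.17 fpm in *meg-1 meg-2*, against 4.49 and 5.45 fpm in wild type (log2 fold change 0.64, limma adjusted *P*=0.0190). All 3 are targets of FBF, which has been studied in the adult germline.

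The larger fall among the targets was that of *hbl-1*, a zinc finger transcription factor of the soma that PUF-9 represses. *hbl-1* had 179 and 186 fpm in *meg-1 meg-2*, against 357 and 345 fpm in wild type. The wild-type libraries lay close together here, and the *meg-1 meg-2* libraries were far below them (log2 fold change −0.94±0.12, limma adjusted *P*=1.29e-09). *let-60*, the Ras gene that PUF-8 represses in the germline, had 23.6 and 25.5 fpm in *meg-1 meg-2*, against 31.3 and 35.3 fpm in wild type (log2 fold change −0.43, limma adjusted *P*=0.0375). *glp-1*, the target of PUF-5, PUF-6 and PUF-7, was picked out after its values were seen. It had 343 and 333 fpm in *meg-1 meg-2*, against 196 and 240 fpm in wild type (log2 fold change 0.64±0.12, limma adjusted *P*=3.85e-05). These values are RNA levels, and neither translation nor binding by PUF proteins was measured.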

How the data were processed

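Total RNA depleted of ribosomal RNA was sequenced with a stranded kit from 4 libraries of embryos, 2 per genotype. The authors aligned reads to ce10 with HISAT2, counted them per gene with HTSeq-count and scaled them with DESeq2. Versions, the annotation release, the strand setting and the handling of reads shared by paralogs are not given in the sources used here. The signal that the authors deposited is, per gene and genotype, the mean of 2 libraries in fpm (reads divided by a size factor, on a common scale of depth). A gene length is also given, as are FPKM columns (fpm divided by that length) and the fold changes and adjusted *P*-values of the authors' own comparison, which were not used here. 0 other columns hold values per sample.

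Reads per library were recovered from the means, since each mean combines whole reads of the libraries, every read of a library adding the same amount. 1 pair of whole numbers was found for 100% of wild-type and 99.998% of *meg-1 meg-2* means. Size factors of the recovered reads gave back the steps, and the recovery was tested on simulated reads. A and B name the libraries of a genotype and are not replicate numbers.

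Genes with a mean of at least 1 fpm were tested with limma (version 3.58.1, R 4.3.3; lmFit, eBayes with a mean trend) on log2(fpm + 0.5), without covariates, and called at a Benjamini-Hochberg adjusted *P*-value below 0.05 over all genes tested. The spread was pooled strongly across genes (134 prior against 2 residual degrees of freedom). 95% intervals use the normal quantile. In simulated counts for 12734 genes with 200 changed by 2-fold, limma recovered 100% and called 3 unchanged genes. The simulated libraries all had the same spread, whereas the real wild-type libraries stood further apart. Only genes of at least 10 fpm were changed, a level that *fbf-1* and *fbf-2* did not reach. The PUF changes called were also below 2-fold. The simulation thus does not give the error rate of the PUF calls. Alternatives were other pseudocounts (0.1 and 2 fpm), a per-kb scale, other filters (none, 5 fpm, the study's FPKM limit), protein-coding genes only, total-count, TMM and quantile scaling, limma without trend or with robust variances, edgeR (version 4.0.16, quasi-likelihood), DESeq2 (version 1.42.0), another threshold, summed paralogs, and each library left out.

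The members and lists were chosen with earlier results of these data known. All 10 members are described. Of the partner and target lists, the 3 genes with the largest change in each direction among those called are named. Gene structures come from the WBcel235 annotation, in which 41759 of the 42048 identifiers were found. No coordinate was converted from ce10.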

Additional observations from a re-analysis of the deposited data

How the results depend on the processing

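The 7 calls were kept under other pseudocounts, the per-kb scale, the filters at 5 fpm and at the study's FPKM limit, protein-coding genes only, total-count, TMM and quantile scaling, robust variances, edgeR and DESeq2. Some lay close to the limit of 0.05. The limma adjusted *P* of *puf-7* was 0.0450 on the per-kb scale, 0.0439 with total-count scaling and 0.0497 with quantile scaling. With edgeR its adjusted *P* was 0.04997. The median log2 fold change of the members stayed between 0.48 and 0.55 (0.41 to 0.73 with a library left out). 0 members were called higher with no filter on low values (28209 genes tested, 7 at an unadjusted *P*-value below 0.05, limma adjusted *P* of the 7 from 0.223 to 0.241, and 3 of all genes called higher and 1 lower), 4 with limma without the trend (*puf-5*, *puf-6* and *puf-7* at adjusted *P* of 0.0612 to 0.0730, and 654 of all genes higher and 332 lower), and 4 under each 1.5-fold rule. 1 member, *puf-9*, was called lower after quantile normalization, as were 1060 of all 12734 genes. *puf-12* reversed to −0.050 with total-count scaling, −0.041 with quantile normalization, −0.051 with edgeR and −0.093 without wild-type library A, and was 0.13 without wild-type library B. The cause was not tested. With each library left out, 0 to 8 members were called higher and 0 to 1 lower, while the calls over all genes ran from 27 to 4566 higher and from 14 to 3296 lower. Partners called higher numbered 1 under the 1.5-fold rule, 0 with no filter, 1 without the trend and 0 to 10 with a library left out. Partners called lower numbered 0 under the 1.5-fold rule, the per-kb scale, no filter and no trend, and 0 to 1 with a library left out. Targets called higher numbered 0 with no filter and 0 to 11 with a library left out. Targets called lower numbered 1 under the 1.5-fold rule, 0 with no filter, 1 at the study's FPKM limit, 1 without the trend and 0 to 3 with a library left out. The list counts and the shares of paralog reads under these settings were added after seeing the data. With a library left out, the difference in share ranged from −0.735 to 2.27 points for *puf-3* and from −0.608 to 0.287 points for *puf-6*, with a value of 0.0322 for *puf-6* without wild-type library B. No paired analysis was possible because only genotype means were given, with no replicate numbers. The search for PUF motifs was not run. With 2 libraries per genotype, an exact test of a single value cannot go below *P*=0.333. *fbf-2* rests on 79 to 108 reads per library.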
